A study of Mus musculus with 6 samples.

Results

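The Tbx3, Prdm14, Tfcp2l1 and Zfp42 loci were described by every peak of 5 ChIP-seq lists that overlapped 1 of 4 fixed windows in the mm9 build. The windows were chr5:120090000-120160000 for Tbx3 (70 kb), chr1:13085000-13135000 for Prdm14 (50 kb), chr1:120495000-120605000 for Tfcp2l1 (110 kb) and chr8:44360000-44410000 for Zfp42 (50 kb). They held 87 of the 70533 deposited peaks, namely 25 of 17272 for Nanog, 20 of 16400 for Tgif1, 20 of 19129 for Tgif2, 17 of 16506 for Hdac1 and 5 of 1226 for Smad3. ChIP-seq maps where a protein sits on chromatin by sequencing the DNA fragments that come down with it, and a peak is an interval where such fragments pile up. All libraries came from J1, an established line of mouse embryonic stem cells, here carrying the biotin ligase BirA and grown in serum with leukemia inhibitory factor (LIF). Antibodies served for Tgif1, Hdac1 and Smad3, whereas streptavidin beads served for the Nanog and Tgif2 libraries. Each factor had 1 library, so no value below has a replicate check and no test between factors or loci was possible. The mock pull-down from BirA cells was not analysed here.

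Tbx3, Prdm14, Tfcp2l1 and Zfp42 belong to the network of genes that marks naive mouse embryonic stem cells. Tbx3 is a T-box transcription factor that helps to keep these cells self-renewing. Prdm14 is a PR-domain zinc finger protein that restrains FGF signalling and DNA methylation and is needed to form primordial germ cells. Tfcp2l1 is a CP2-family factor that acts downstream of LIF and STAT3, and Zfp42, also known as Rex1, is a zinc finger protein used as a marker of the undifferentiated state. Of the proteins mapped, Nanog is a homeodomain factor of the same network and Smad3 is the DNA-binding effector of Activin, Nodal and TGF-beta receptors. Tgif1 and Tgif2 are homeodomain corepressors that can bind Smad proteins, and Hdac1 removes acetyl groups from histones.

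RefSeq promoter sequences matched 2 of the 4 genes, Tfcp2l1 and Zfp42, and are shown because they give the letters next to the start of 2 genes around which the windows were drawn. Each sequence is the 250 bases before the annotated start in GRCm38.p6, written 5′ to 3′ along the gene. The Tfcp2l1 bases are chr1:118627695-118627944 on the plus strand and the Zfp42 bases chr8:43307010-43307259 on the minus strand. Those are positions of another build than that of the peaks, so neither promoter was placed on a peak. Capitals mark matches to the motifs searched.

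Tfcp2l1: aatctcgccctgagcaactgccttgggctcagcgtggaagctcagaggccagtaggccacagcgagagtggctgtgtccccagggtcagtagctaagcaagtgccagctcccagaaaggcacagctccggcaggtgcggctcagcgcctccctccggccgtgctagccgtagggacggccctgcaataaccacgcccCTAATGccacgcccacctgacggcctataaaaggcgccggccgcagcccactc

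Zfp42: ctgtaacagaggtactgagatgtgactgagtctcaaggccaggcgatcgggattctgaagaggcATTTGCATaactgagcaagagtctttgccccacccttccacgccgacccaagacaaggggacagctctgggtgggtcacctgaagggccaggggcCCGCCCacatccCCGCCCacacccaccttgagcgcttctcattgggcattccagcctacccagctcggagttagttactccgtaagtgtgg

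The Zfp42 sequence held 1 match to the octamer ATGCAAAT, the sequence bound by Oct proteins, which begins 186 bases before the start and reads ATTTGCAT as printed. A match to that octamer on either strand was present in 1.60% of 32851 promoters of this length. Zfp42 also held 2 GC boxes (CCGCCC), a motif found in 32.7% of promoters. The Tfcp2l1 sequence held 1 match to CATTAG, one of the Nanog motifs searched, printed as CTAATG, which occurred in 6.36% of promoters. Neither sequence held TGACAG (15.9% of promoters) or TGTCA (40.0%), searched for Tgif, where every TGACAG also counts as a TGTCA on the opposite strand. Nor did either hold CAGAC (42.2%) or GTCTAGAC (0.167%), searched for Smad, TAATGG (6.57%), searched for Nanog, or CATTGTT (3.29%), searched for Sox. These are matches of letters in 250 bases and not measured sites.

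Of the 4 windows as drawn, Tbx3 had the most peaks per length, and Nanog peaks made up the largest share of them. It held 29 peaks, or 4.14 per 10 kb, of which 12 were Nanog, 6 Hdac1, 5 Tgif1, 4 Tgif2 and 2 Smad3. The Prdm14 window held 18 peaks, or 3.60 per 10 kb, with 6 of Tgif2, 4 each of Tgif1, Hdac1 and Nanog, and no Smad3 peak. The Tfcp2l1 window held 31 peaks, or 2.82 per 10 kb, with 9 of Tgif2, 7 each of Tgif1 and Nanog, 6 of Hdac1 and 2 of Smad3. The Zfp42 window held 9 peaks, or 1.80 per 10 kb, with 4 of Tgif1, 2 of Nanog and 1 each of Tgif2, Hdac1 and Smad3. The order of Tbx3 and Prdm14 depended on the window edges. With 25 kb added on both sides, a width chosen after the peaks had been seen, Prdm14 held 35 peaks, or 3.50 per 10 kb, and Tbx3 held 38, or 3.17 per 10 kb.

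The mouse chromosomes were also divided into adjacent tiles of each window's length, and tiles with any peak were kept, as a description of how common such densities are. At least 12 Nanog peaks occurred in 12 of 14064 tiles of 70 kb, or 0.0853%, and at least 29 peaks of any factor in 0.633%. For as many peaks as the Tbx3 window held, the share was 9.1% for Tgif2 and 3.9% for Tgif1. It was 1.83% for Hdac1 and 0.91% for Smad3. Of the 12 Nanog peaks at Tbx3, 11 had their summit inside the window. Of the 50-kb tiles, 2.04% held at least the 18 peaks of Prdm14 and 12.4% at least the 9 peaks of Zfp42. At least the 31 peaks of Tfcp2l1 were found in 1.46% of 110-kb tiles. Tbx3, Prdm14 and Tfcp2l1 were thus among the more densely occupied stretches of the lists, while Zfp42 was less unusual in number. The windows were placed around genes with occupancy already in view, so these percentages carry no p.

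**Figure D1:**
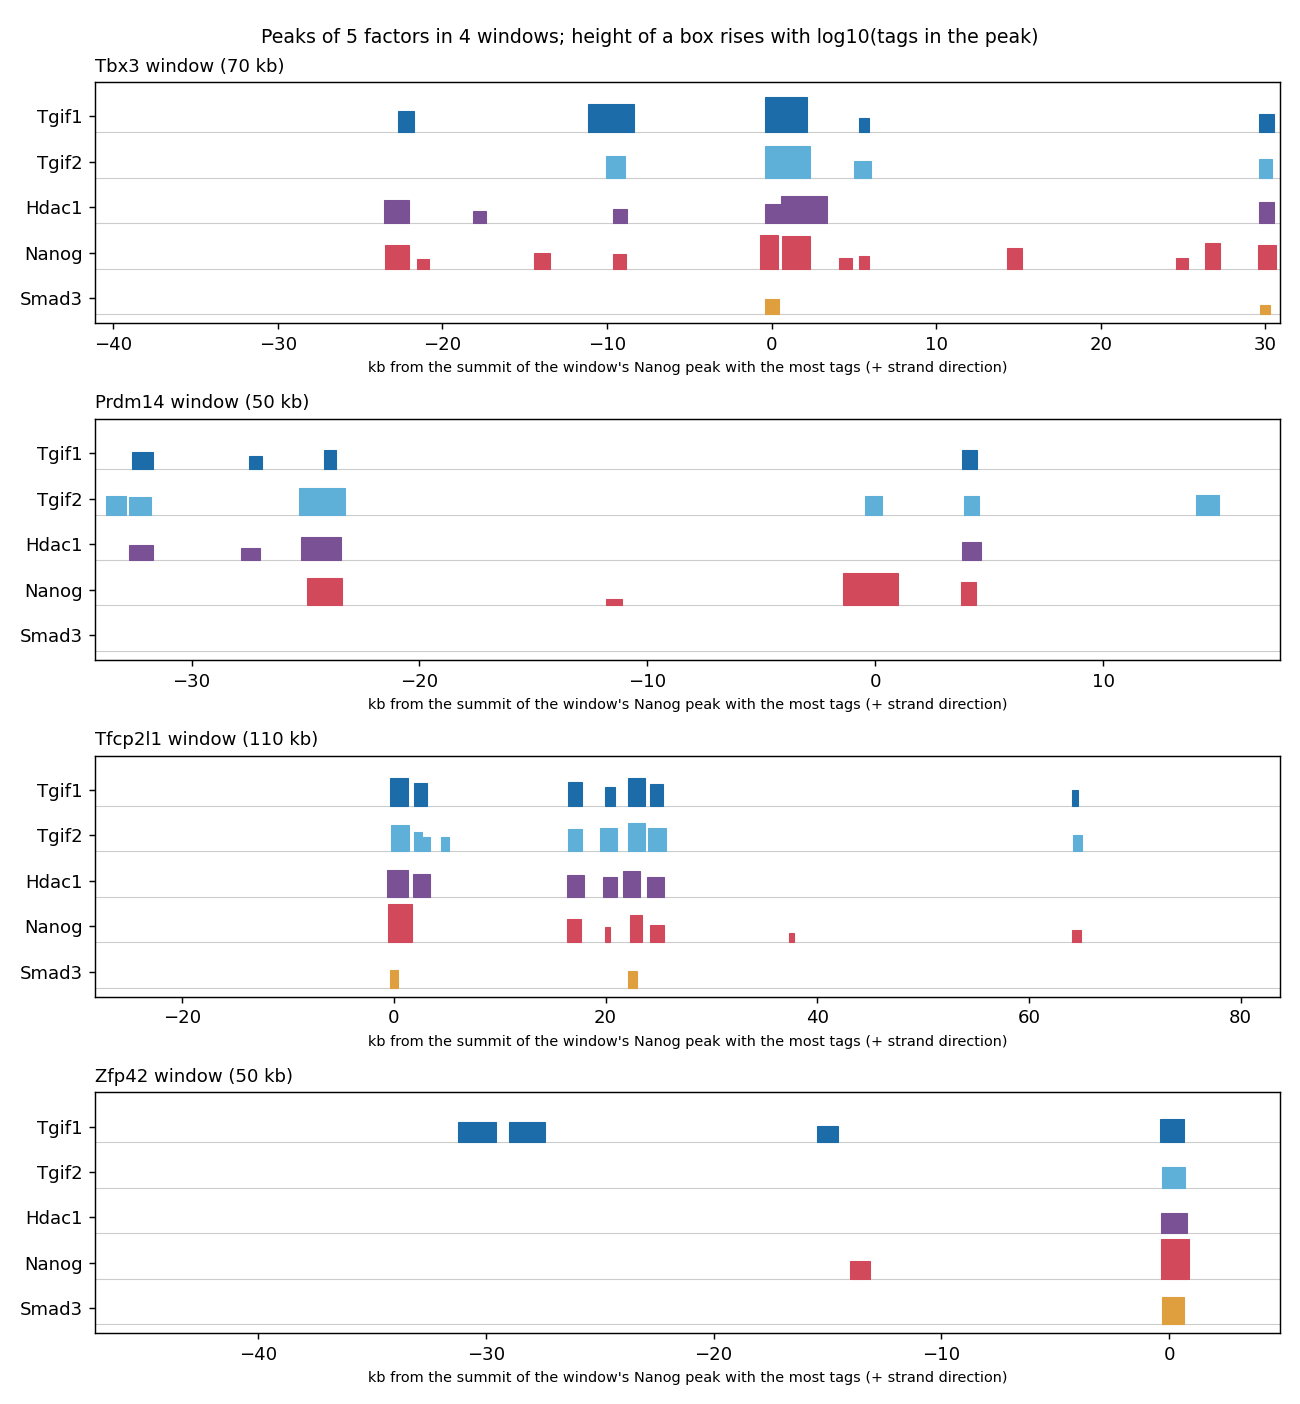
Peaks of the 5 factors in the 4 windows, with the horizontal axis in kb from the summit of the window's Nanog peak with the most tags and 1 row per factor. Each box spans a peak and its height rises with the log10 of its tags. Boxes stack in the same columns at Tfcp2l1, Nanog boxes stand alone in much of the Tbx3 window, and the Zfp42 window has a single column that holds all 5 factors.

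Overlapping peaks were joined into places, and the 87 peaks formed 34 places. All 5 factors were present at 5 of them, 4 factors at 6, and a single factor at 16. Over the whole lists, 2.01% of 33152 places held 5 factors, 10.7% held 4 and 43.2% held 1. The places with 5 factors were 2 at Tbx3, 2 at Tfcp2l1 and 1 at Zfp42, with none inside the Prdm14 window. Widening the windows by 25 kb on both sides gave 7 such places, and the 2 added ones both lay before the Prdm14 window. A place with 4 factors always lacked Smad3, and such places numbered 3 at Tfcp2l1, 2 at Prdm14 and 1 at Tbx3. That is usual, since Smad3 was also the missing factor in 3384 of the 3562 places with 4 factors over the lists. The count of 5 depended on the definition of a place. Joining peaks by summits within 200 bp left 2 places with all factors (1 at Tbx3 and 1 at Tfcp2l1), and leaving out the peaks under the median fold of their list left 1, at Tfcp2l1. The 2.01% over the lists is for places joined by overlap, and the share under these other settings is not given here. The fall from 5 can therefore not be read as particular to these windows.

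At Tbx3 the leading place was the broadest of the 34, chr5:120129362-120133478, a run of 4116 bp made of 7 peaks. Its Tgif1 peak held 316 tags, read as the count of sequenced fragments in the peak, and ranked 44 in the Tgif1 list. Its Tgif2 peak held 237 tags and ranked 183. Both were the peaks with the most tags that their lists had in any of the 4 windows. Nanog had a peak of 271 tags (rank 209) and, beside it, another of 243 tags (rank 280). Hdac1 also had a pair, of 64 tags (rank 4135) and 147 tags (rank 209), the latter being the largest Hdac1 peak of the 4 windows. Smad3 held 40 tags there and ranked 282. By fold enrichment over background the same peaks were less prominent, with 29.4-fold for Tgif1, 18.1-fold for Tgif2, 44.4-fold and 44.9-fold for Nanog, 4.96-fold and 8.96-fold for Hdac1 and 6.05-fold for Smad3. Ranked by fold they stood at 8.79% of the list for Tgif1, 32.6% for Tgif2 and 20.5% and 20.3% for Nanog. The Hdac1 peaks stood at 99.2% and 66.5% and the Smad3 peak at 95.9%, on the weaker side of their lists. The place took 47.5% of all Nanog tags and 49.5% of all Tgif1 tags in the window.

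Summits, the positions of highest signal, fell into separate groups in that place. Nanog at 120130078, Hdac1 at 120130165 and Smad3 at 120129994 formed the first group. The second lay about 2 kb further along the chromosome, where the other Nanog summit (120132054), the other Hdac1 summit (120132062) and those of Tgif1 (120132052) and Tgif2 (120132082) fell close to each other. The Smad3 summit was 84 bp from the nearest Nanog summit, 171 bp from Hdac1, 2058 bp from Tgif1 and 2088 bp from Tgif2. At this place the Tgif1 and Tgif2 peaks therefore covered the Smad3 summit while their own summits lay elsewhere. The lists give 1 summit per peak, and Tgif1 and Tgif2 each had a single peak here, of 2549 and 2768 bp. A lesser maximum of either near Smad3 would not be listed. The distances therefore do not show that Tgif1 or Tgif2 was absent from the Smad3 summit.

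The other Tbx3 place with all factors, chr5:120159637-120160701, straddled the end of the window and had compact summits within 102 bp of each other. Nanog held 94 tags (49.7-fold, rank 1706), Hdac1 79 (22.1-fold, rank 2227), Tgif2 60 (15.2-fold, rank 8796), Tgif1 57 (13.7-fold, rank 7411) and Smad3 21 (8.99-fold, rank 794). Its Hdac1 fold was the highest Hdac1 fold in the 4 windows, although its tags were not. At the place with 4 factors, chr5:120118929-120121696, Tgif1 held 156 tags (11.0-fold, rank 536). Tgif2 had 81 tags there (18.3-fold, rank 4992), Nanog 39 (21.3-fold, rank 5996) and Hdac1 38 (7.22-fold, rank 11365), with summits spread over 229 bp. Of the remaining 9 places at Tbx3, 2 held 3 factors and 7 held a single factor, which was Nanog in 6 cases and Hdac1 in 1.

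Inside the Prdm14 window no Smad3 peak was listed, and the largest Nanog peak had only Tgif2 beside it. The absence of Smad3 held for this window edge only, since places with all 5 factors lay 9.0 kb and 19.6 kb before it, at chr1:13073050-13075999 and chr1:13064276-13065362. The large Nanog peak, chr1:13116793-13119222, was the widest Nanog peak of the 4 windows at 2429 bp and held 242 tags (45.5-fold, rank 286). The Tgif2 peak inside it held 59 tags (7.43-fold, rank 9033). Neither Tgif1 nor Hdac1 had a peak there. Places with Nanog and Tgif2 alone were 1.68% of all places.

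The 2 Prdm14 places with 4 factors were compact. At chr1:13092922-13094937, 24.0 kb before the summit of the large Nanog peak on the plus strand, Nanog held 139 tags (30.6-fold, rank 847), Tgif2 124 (9.30-fold, rank 1654), Hdac1 88 (6.85-fold, rank 1556) and Tgif1 62 (11.5-fold, rank 6459). The 4 summits lay within 44 bp, the tightest of the 11 places with 4 or 5 factors. At chr1:13121994-13122839, 4.09 kb after the same summit, Nanog held 98 tags (27.6-fold, rank 1585), Tgif1 58 (9.39-fold, rank 7225), Tgif2 55 (8.48-fold, rank 10042) and Hdac1 54 (8.71-fold, rank 6194), within 71 bp. Other Prdm14 places held no more than 63 tags of any factor. They included 1 with Tgif1, Tgif2 and Hdac1, 1 with Tgif1 and Hdac1, 2 with Tgif2 alone and 1 with Nanog alone. The first Tgif2 peak, chr1:13084466-13085337, began outside the window and its summit lay inside. The next gene after Prdm14 in the RefSeq order of GRCm38.p6 is Ncoa2, a nuclear receptor coactivator, and whether the window reaches it was not determined.

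Tfcp2l1 was the locus where the 4 factors other than Smad3 most often stood together. Of its 9 places, 5 held at least Tgif1, Tgif2, Hdac1 and Nanog, and these took up 2 stretches of the window. The longest empty stretch was the 26590 bp from the start of the window to the first place. That place, chr1:120521590-120523936, carried all 5 factors and the largest Nanog peak of the locus. Nanog held 456 tags (88.7-fold, rank 42), Tgif1 150 (18.7-fold, rank 625), Hdac1 127 (9.89-fold, rank 381), Tgif2 122 (11.1-fold, rank 1743) and Smad3 51 (10.3-fold, rank 174). Here too the summits separated. Nanog (120522222) and Smad3 (120522219) were 3 bp apart, and Tgif1 (120523206), Tgif2 (120523189) and Hdac1 (120523204) lay 970 to 987 bp further along. Nanog, Tgif1, Tgif2 and Hdac1 each had a single peak there, of 2282, 1722, 1698 and 1985 bp. With 1 summit listed per peak, a lesser maximum inside them would not be seen.

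Next to it, chr1:120524015-120525671 held Tgif1 (89 tags), Hdac1 (87 tags) and a pair of Tgif2 peaks (59 and 36 tags) with no Nanog peak. Further along, 4 consecutive places between 120538587 and 120547903 each held Tgif1, Tgif2, Hdac1 and Nanog. The largest of these 4, chr1:120543903-120545973, also carried Smad3, and all its summits lay within 121 bp. It held 156 tags of Tgif2 (25.4-fold, rank 805), 148 of Tgif1 (25.6-fold, rank 661), 141 of Nanog (60.8-fold, rank 823), 115 of Hdac1 (20.02-fold, rank 590) and 46 of Smad3 (12.9-fold, rank 213). Tgif1, Tgif2, Hdac1 and Nanog therefore had similar standing there, each within the top 4.76% of its list by tags, and Smad3 stood lower at 17.4%. It was also the place with all factors that remained by 50% overlap of the shorter peak, by summits within 200 bp and without the peaks under the median fold.

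The other 3 of these places had fewer tags. At chr1:120538587-120540158, Tgif1 held 94 tags (24.1-fold, rank 2662), Nanog 90 (39.7-fold, rank 1815), Hdac1 83 (14.0-fold, rank 1912) and Tgif2 80 (19.9-fold, rank 5112). Its summits spanned 391 bp, with Nanog at 120539030 and the others between 120539398 and 120539421. At chr1:120541657-120543314, Tgif2 held 93 tags (14.3-fold, rank 3587), Hdac1 67 (14.8-fold, rank 3662), Tgif1 61 (20.4-fold, rank 6637) and Nanog 42 (14.2-fold, rank 5421), within 90 bp. At chr1:120546156-120547903, Tgif2 held 96 tags (12.5-fold, rank 3321), Tgif1 76 (7.82-fold, rank 4414), Hdac1 67 (5.33-fold, rank 3662) and Nanog 48 (7.39-fold, rank 4553). In that last place Nanog and Hdac1 summits (120547021 and 120547035) lay together, and those of Tgif1 and Tgif2 (120547422 and 120547421) lay together about 0.4 kb away. The 3 remaining places held Tgif2 alone (35 tags), Nanog alone (21 tags), and Tgif1 with Tgif2 and Nanog (41, 44 and 30 tags).

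Zfp42 had the fewest peaks and the largest Nanog and Smad3 peaks of the 4 windows, both in 1 place. At chr8:44405706-44406968 the Nanog peak held 530 tags and ranked 21 of 17272 (0.122%), at 88.7-fold. The Smad3 peak held 144 tags and ranked 12 of 1226 (0.979%), at 20.8-fold. Tgif1 held 93 tags (rank 2740), Tgif2 73 (rank 6178) and Hdac1 70 (rank 3223). That place took 90.6% of the Nanog tags of the window, and it held the only Tgif2, Hdac1 and Smad3 peaks. Nanog was at 44406124, Smad3 at 44406328, Tgif2 at 44406439, Tgif1 at 44406486 and Hdac1 at 44406498, so the summits ran over 374 bp with Smad3 between Nanog and the rest.

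The other 4 Zfp42 places had a single factor each. Tgif1 alone occupied chr8:44374928-44376595 (70 tags), chr8:44377163-44378744 (68 tags) and chr8:44390663-44391578 (45 tags). Nanog alone occupied chr8:44392132-44392982 (55 tags), 13.7 kb from the summit of the large Nanog peak. Tags and fold differed widely in this window, where 7 of 9 peaks were in the lowest 25% of their list by fold and none was in the lowest 25% by tags. Tgif1, Tgif2 and Hdac1 at the place with all 5 factors were at 9.33-fold, 7.93-fold and 4.72-fold, which ranked them at 77.9%, 90.8% and 99.5% of their lists, against 16.7%, 32.3% and 19.5% by tags. In the other windows the lowest 25% by fold took 7 of 29 peaks at Tbx3, 8 of 18 at Prdm14 and 8 of 31 at Tfcp2l1.

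Every Smad3 peak of the 4 windows lay where all other factors were present. Each of the 5 overlapped Tgif1, Tgif2, Hdac1 and Nanog, a combination found for 54.3% of the 1226 Smad3 peaks. In 2 of the 5 places, at Tbx3 and Tfcp2l1, the Smad3 summit was nearer to Nanog than to Tgif1, Tgif2 and Hdac1, against 38.3% of the 665 places with all factors. In 3 of the 5 the Smad3 summit was more than 100 bp from each of the summits of Tgif1, Tgif2 and Hdac1, against 9.62% of such places. The third was Zfp42, where Tgif2 was the nearest to Smad3 at 111 bp, followed by Tgif1 at 158 bp, Hdac1 at 170 bp and Nanog at 204 bp. At the remaining places of Tbx3 and Tfcp2l1 the nearest summits were those of Tgif2 at 28 bp and Tgif1 at 19 bp. Both measures were chosen after the summits had been seen, and 5 places are too few to set them apart from the rest.

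**Figure D2:**
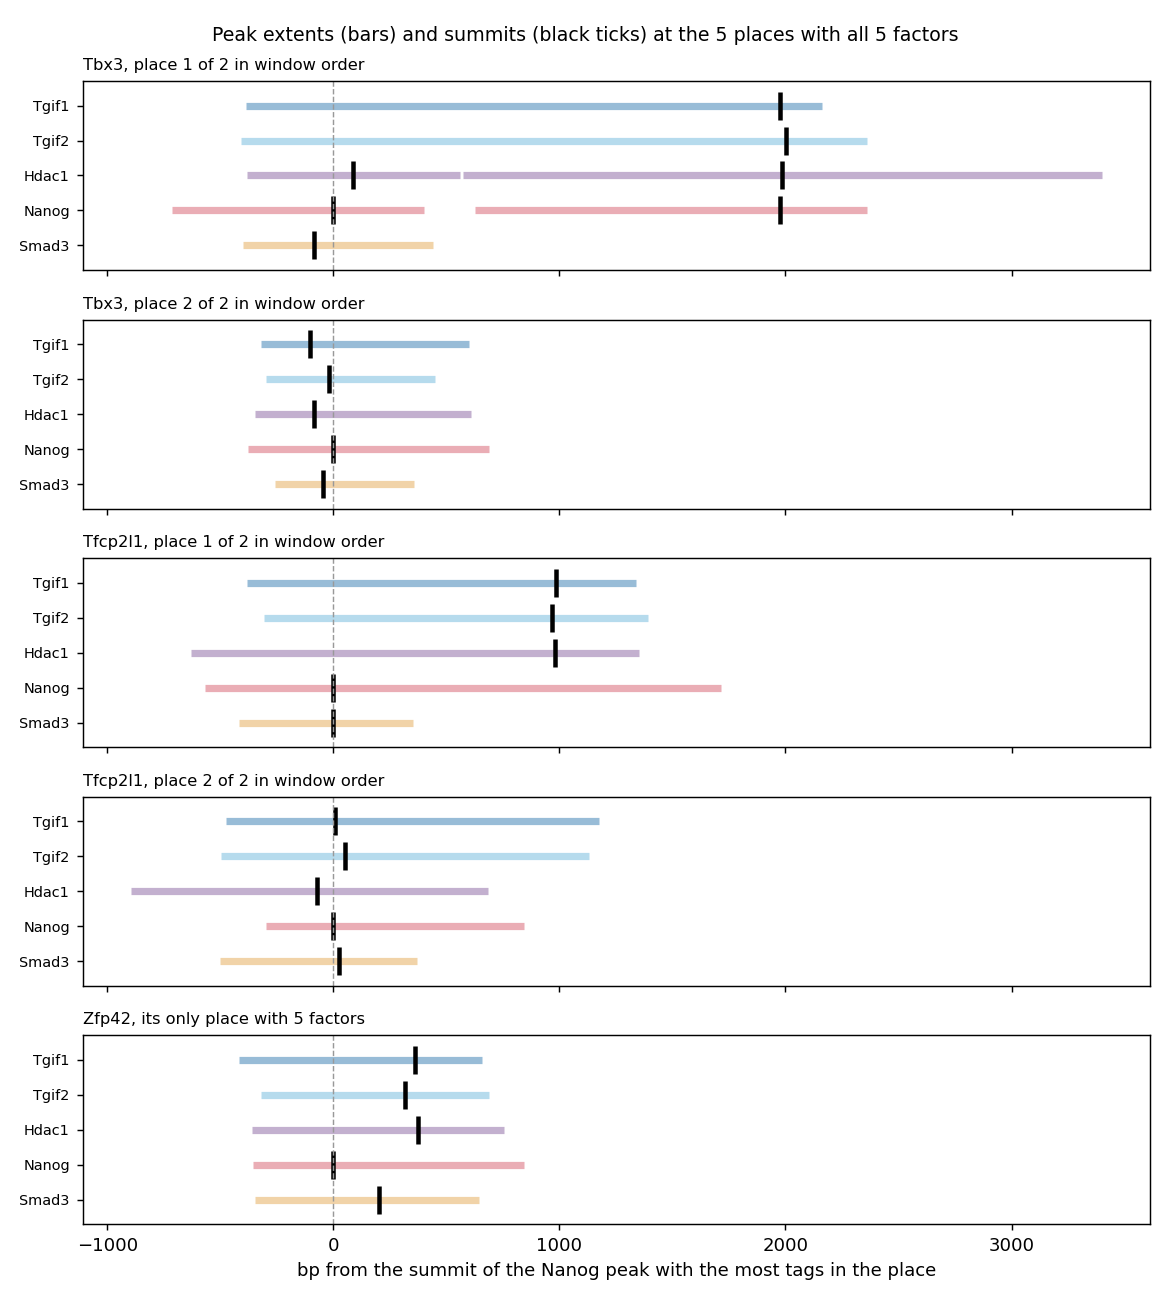
Extents (bars) and summits (black ticks) of the peaks at the 5 places with all factors, in bp from the summit of the place's Nanog peak with the most tags. Tgif1, Tgif2 and Hdac1 ticks coincide near 1 kb from Nanog and Smad3 at the first Tfcp2l1 place, and all ticks fall within 121 bp at the second.

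Across pairs of factors, overlapping peaks of the 4 windows had summits a median of 45.5 bp apart for Tgif1 and Tgif2 (16 pairs), against 43 bp over the whole lists. The median was 27 bp for Tgif1 and Hdac1 (16 pairs, 67 bp over the lists) and 84 bp for Tgif1 and Nanog (15 pairs, 63 bp). It was 48 bp for Nanog and Smad3 (5 pairs, 36 bp) and 158 bp for Tgif1 and Smad3 (5 pairs, 49 bp). The distances to Smad3 ranged from 19 to 2058 bp for Tgif1 and from 3 to 204 bp for Nanog, so these medians rest on few and scattered values. Between peak midpoints the medians of these pairs were longer. They were 89 bp for Tgif1 and Tgif2, 112 bp for Tgif1 and Hdac1 and 124 bp for Tgif1 and Nanog. For Nanog and Smad3 the median was 177.5 bp, and for Tgif1 and Smad3 415.5 bp. Tgif2 lay 160 bp from Hdac1, 90 bp from Nanog and 382.5 bp from Smad3, against 59, 77 and 111 bp by summits. Over the lists those summit medians were 74, 73 and 64.5 bp. Hdac1 and Nanog lay 122 bp apart, against 71 bp by summits (53 bp over the lists). Hdac1 and Smad3 went the other way, from 170 bp by summits (5 pairs, 46 bp over the lists) to 69.5 bp. Medians between midpoints over the whole lists are not given here.

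The shares of Tgif1, Tgif2 and Hdac1 peaks with Nanog were higher in the 4 windows than over the whole lists, a description with no test. Of 20 Tgif1 peaks, 14 overlapped Nanog, or 70.0% (95% Wilson interval 48.1 to 85.5, for counting error only), against 36.7% of the whole list. Tgif2 likewise had 14 of 20, against 32.2%, and Hdac1 had 13 of 17, against 45.6%. In the opposite direction 15 of 25 Nanog peaks overlapped Tgif1 (35.8% of the list) and 15 overlapped Tgif2 (36.7%), while 13 overlapped Hdac1, or 52.0%, which is near the 45.9% of the list. Smad3 overlapped 5 of 20 Tgif1 peaks (5.04% of the list), 5 of 20 Tgif2 peaks (4.08%), 5 of 17 Hdac1 peaks (5.90%) and 5 of 25 Nanog peaks (6.43%). These 5 are the same places seen from each list.

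Between Tgif1 and Tgif2 the windows resembled the lists. Tgif2 overlapped 15 of 20 Tgif1 peaks, or 75% against 79.2%, and Tgif1 overlapped 16 of 20 Tgif2 peaks, or 80.0% against 68.0%. Hdac1 overlapped 15 of 20 Tgif1 peaks (66.1% of the list) and 14 of 20 Tgif2 peaks (59.9%). Of 17 Hdac1 peaks, 16 carried Tgif1, or 94.1% (64.6% of the list), and 14 carried Tgif2, or 82.4% (68.4%). The only Hdac1 peak without Tgif1 was the one that stood alone at Tbx3. All 5 Smad3 peaks overlapped Tgif1 (67.5% of the list), Tgif2 (63.7%), Hdac1 (81.1%) and Nanog (90.3%). Neighbouring peaks of a locus are not independent, and the windows were chosen with these lists known. Some comparisons changed and others held when peaks under the median fold of either list were left out. Nanog then overlapped 3 of 7 Hdac1 peaks, or 42.9%, against 34.6% of the list reduced in the same way. It still overlapped 5 of 9 Tgif1 peaks, or 55.6% (23.4% of the reduced list), and 4 of 8 Tgif2 peaks, or 50.0% (18.2%). Of 15 Nanog peaks, 6 overlapped Tgif1, or 40.0% (22.5% of the reduced list), and 5 overlapped Tgif2, or 33.3% (20.3%). Another share, the 3 of 15 that overlapped Hdac1, was at 20% below the 33.7% of the reduced list. Shares above the reduced list were not confined to Nanog. Tgif2 overlapped 6 of 7 Hdac1 peaks, or 85.7% (48.1%), and Hdac1 overlapped 6 of 8 Tgif2 peaks, or 75.0% (42.1%). Tgif1 overlapped 5 of 7 Hdac1 peaks, or 71.4% (46.8%), and 6 of 8 Tgif2 peaks, or 75.0% (56.4%). Of 9 Tgif1 peaks, 5 overlapped Hdac1, or 55.6% (47.7%), and 6 overlapped Tgif2, or 66.7% (65.5%).

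**Figure D3:**
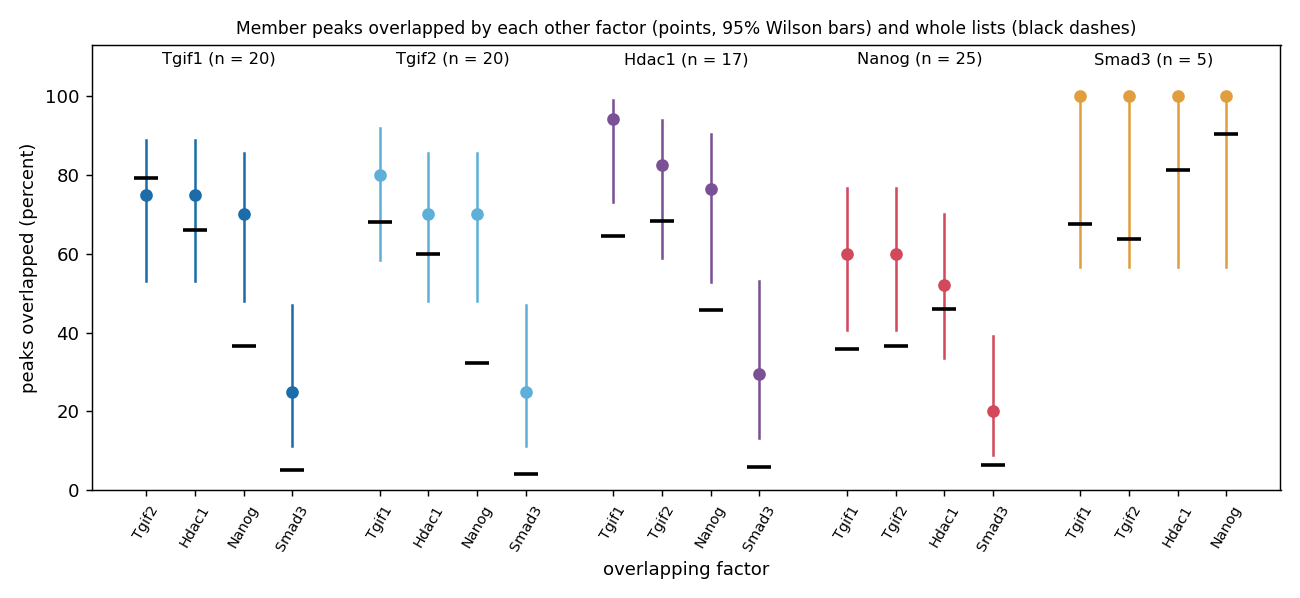
Percent of the peaks of each factor in the 4 windows that overlapped each other factor (points, with 95% Wilson intervals as bars) and the same percent over the whole list (black dashes). Tgif1, Tgif2 and Hdac1 points for Nanog and for Smad3 lie above the dashes, while Tgif1 with Tgif2 lies close to its dash.

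By tags, though not by fold, the Nanog peaks of the 4 windows stood high in their list. Their median was 74 tags, against 30 for all Nanog peaks, and 11 of 25 were among the top 10% of the list (10% of all peaks by construction). For Hdac1 the median was 70 tags against 47, with 6 of 17 in the top 10% (10.2%). For Tgif1 it was 69 against 54, with 4 of 20 (10.2%), and for Tgif2 61.5 against 57, also with 4 of 20 (10.1%). Smad3 had a median of 46 tags against 26, with 1 of 5 (10.1%). By fold the top 10% took only 2 of 25 Nanog, 2 of 17 Hdac1, 1 of 20 Tgif1, 0 of 20 Tgif2 and 1 of 5 Smad3 peaks, and by tags per kb it took 7, 5, 3, 1 and 2. The median rank stood at 14.2% of the list for Nanog, 17.4% for Smad3, 19.5% for Hdac1, 32.6% for Tgif1 and 44.1% for Tgif2, where 50% is the middle. Ranked by fold the medians were 43.6%, 41.1%, 66.5%, 59.7% and 69.9%, so Tgif1, Tgif2 and Hdac1 peaks passed to the weaker side of their lists. Peaks of the windows were also wider than usual, with a median of 910 bp against 633 bp for Nanog and 1339 bp against 1038 bp for Hdac1, and the part of width in the ranks by tags was measured by tags per kb. On that scale the median ranks were 26.8% for Nanog, 26.1% for Hdac1, 39.1% for Tgif1, 45.4% for Tgif2 and 20% for Smad3.

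**Figure D4:**
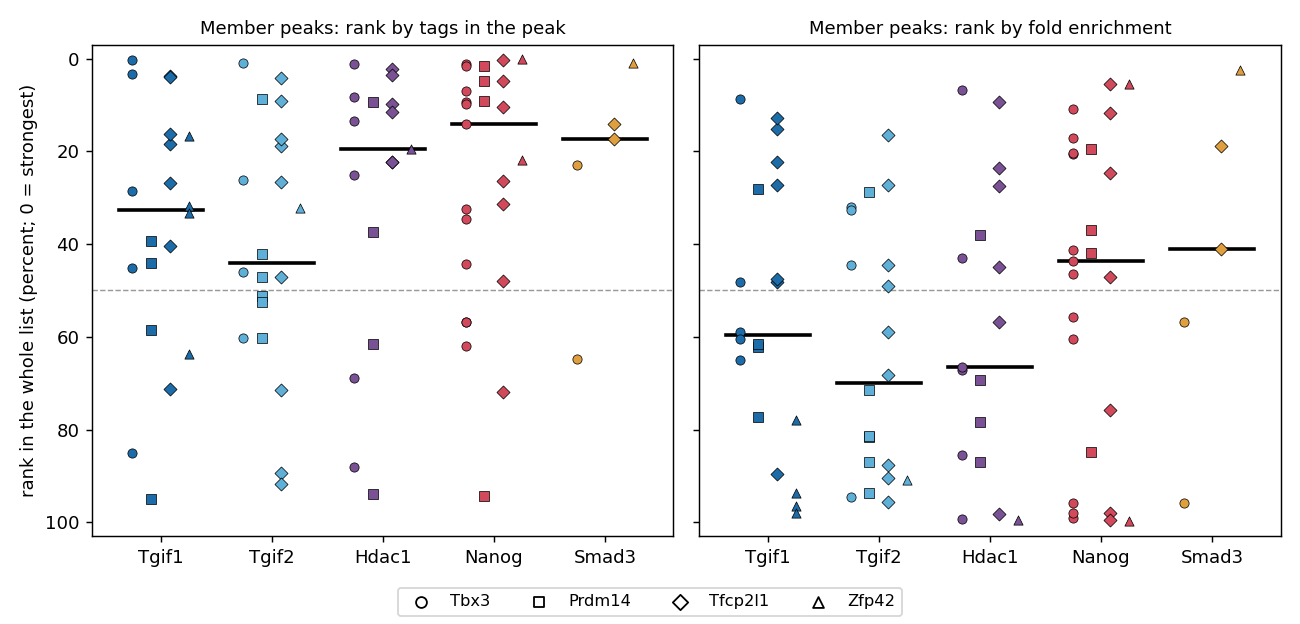
Rank of each peak of the 4 windows in its whole list, in percent with the strongest at the top, by tags (left) and by fold enrichment (right). Symbols give the window, black bars the median over the windows and the dashed line the middle of the list. Zfp42 triangles of Tgif1, Tgif2 and Hdac1 all lie lower on the right than on the left.

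Chromosome 1, which holds Prdm14 and Tfcp2l1, had a higher median of tags per peak than the rest of the genome in each list. It was 62 tags against 53 elsewhere for Tgif1, 67 against 57 for Tgif2, 54 against 47 for Hdac1, 32 against 29 for Nanog and 37 against 26 for Smad3. Ranked among the peaks of the same chromosome, the leading Tfcp2l1 Nanog peak stood at 0.744% instead of 0.243%, and its Smad3 peaks at 30.4% and 35.4% instead of 14.2% and 17.4%. Over all windows, 10 of 25 Nanog, 4 of 17 Hdac1, 4 of 20 Tgif1 and 1 of 20 Tgif2 peaks were in the top 10% of their chromosome. The part of the chromosome 1 level in the ranks at Prdm14 and Tfcp2l1 was otherwise not tested.

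Nanog peaks without company held few tags on the whole, and those with all factors held many. The 9 Nanog peaks that stood alone, of which 6 were at Tbx3, held 16 to 116 tags with a median of 26. Over the list, 7483 such peaks had a median of 24. The 6 Nanog peaks at places with all factors held 94 to 530 tags with a median of 257, and the 817 of the list had a median of 118. Their tags overlapped in range, since 1 lone Nanog peak at Tbx3, chr5:120156431-120157311, held 116 tags (rank 1214). By fold the lone Nanog peaks of the windows ran from 6.29 to 63.59, and those with all factors from 44.36 to 88.72. Over the list, lone Nanog peaks were not the lowest by fold. Their median was 23.9, against 23.2, 22.2, 21.3 and 49.3 at places with 2, 3, 4 and 5 factors. For Tgif1 the lone peaks, all at Zfp42, held 45 to 70 tags, and those at places with all factors held 57 to 316. Places with 4 or 5 factors held 12 of 17 Hdac1 peaks, 11 of 20 Tgif1 and 11 of 20 Tgif2 peaks, and 12 of 25 Nanog peaks. Over the lists, places with 4 and with 5 factors held 3733 and 736 of 16506 Hdac1 peaks. For Tgif1 they held 3813 and 758 of 16400, for Tgif2 3769 and 762 of 19129 and for Nanog 3915 and 817 of 17272.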

How the data were processed

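The series held 6 samples, 5 with a peak list, 1 library per factor. Per the submitters' processing notes, BWA 0.5.9-r16, MACS and mm9 were used; settings, the control for each list and the depth of the libraries are not given in the sources used here. The deposited lists have no header. Per peak they give positions, a fold enrichment (a ratio over background from the authors' peak caller) and a whole number read as the count of tags. Both are the authors' values and were compared by rank inside a list, never between lists. Starts are printed as deposited, with an uncertainty of 1 bp.

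A peak belonged to a locus if it overlapped the window. Peaks were shared if they overlapped by at least 1 bp, and places are unions of such peaks. Rank 1 has the most tags, and tied peaks share the best rank. Places with 4 or 5 factors, the largest peak of each list per locus and all Smad3 peaks were described in full. Members, lists and rules were chosen with earlier results of these data known. Overlap counts were tested on simulated data (0 of 27 quantities differed) and checked against bedtools 2.31.1 (0 of 20 differed). Alternatives were other definitions of overlap, of rank, of tiles and of membership. Exons, introns, distances to gene starts and windows of other network genes were planned, but annotation of mm9 was not used here. Python 3.11.15, NumPy 2.4.6, pandas 2.3.3, SciPy 1.17.1 and matplotlib 3.10.9 were used.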

Additional observations from a re-analysis of the deposited data

How the results depend on the processing

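Widening the windows by 25 kb, ranking within a chromosome and the comparison of summits around Smad3 were chosen after seeing the data. Of the alternative values, 188 stayed within their limit and 78 moved. Without the peaks under the median fold, Tgif1 kept 9 peaks, Tgif2 8, Hdac1 7, Nanog 15 and Smad3 3, and counts fell to 14 at Tbx3, 6 at Prdm14, 20 at Tfcp2l1 and 2 at Zfp42. There were then 21 places, 1 with 5 factors and 2 with 4. With the list cut in the same way in brackets, shares became 71.4% for Hdac1 with Tgif1 (46.8%) and 42.9% for Hdac1 with Nanog (34.6%). Nanog had 40.0% with Tgif1 (22.5%), 33.3% with Tgif2 (20.3%) and 20% with Hdac1 (33.7%). Of 3 Smad3 peaks, 1 overlapped Tgif2 and 1 overlapped Hdac1, or 33.3% each (39.6% and 64.1%). At or above the median tags, 13 Tgif2 peaks and 10 Prdm14 peaks were left. By summits within 200 bp, 2 places held 5 factors, and shares were 70.6% for Hdac1 with Tgif1 and 40.0% for Nanog with Tgif1 and with Tgif2. Shares of the whole lists by summits within 200 bp are not given here. These values can therefore not be set against the list shares by overlap. Wider windows gave 35 peaks at Prdm14, among them 11 of Nanog and 2 of Smad3 in place of 4 and 0. Over the 4 loci they gave 50 places, 7 with 5 factors and 27 with 1 factor, against 2.01% and 43.2% of all places. Median ranks by fold were 59.7%, 69.9%, 66.5% and 43.6% for Tgif1, Tgif2, Hdac1 and Nanog. Counting empty tiles too gave 0.236%, 0.639%, 0.672% and 3.88% of tiles for Tbx3, Prdm14, Tfcp2l1 and Zfp42. By midpoints, Tgif1 and Tgif2 lay 89 bp apart. The causes were not tested, beyond the shorter lists that a threshold leaves. No paired analysis was possible because each factor had 1 library. Library depth is unknown, so a factor without a peak in a window is only not listed there.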

Other observations

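Values of fold repeated within the lists, so that equal fold does not mean equal signal. In the Nanog list 88.3% of peaks shared their fold with another peak. The leading Nanog peaks of Tfcp2l1 (456 tags) and Zfp42 (530 tags) both had 88.72-fold, a value carried by 14 Nanog peaks with 60 to 530 tags.

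Peaks lay close outside some windows. A Tgif2 peak of 73 tags began 837 bp after the Prdm14 window, a Nanog peak of 20 tags 1831 bp after the Tbx3 window, and a Nanog peak of 18 tags ended 529 bp before the Tfcp2l1 window. After Tfcp2l1 the next peak of any list was 68.0 kb away, and before Zfp42 it was 87.4 kb away.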
